A study of Mus musculus with 15 samples.

Results

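The 62 histone genes of a mouse aortic valve expression table were described across 4 groups of mice. They were the rows, of 18073 genes in all, whose symbols begin with Hist and a cluster number, H2af, H3f3 or H1f, and none of the rows used here begins with H1f. Of these, 53 carry Hist symbols and are called the Hist-named genes (6 of H1, 9 of H2A, 16 of H2B, 11 of H3 and 11 of H4), with 42 in the Hist1, 8 in the Hist2 and 3 in the Hist3 set. The other 9 are variant genes: H3f3a, H3f3b, H2afz, H2afv, H2afx, H2afj, H2afy, H2afy2 and H2afy3.

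RNA was sequenced from the 3 aortic valve leaflets of each of 15 C57BL/6 mice aged 2 months, which differed in Notch1, a receptor needed for normal valve development, and in Terc, the gene of the telomerase RNA. N1het/TercG2 mice (n = 4) had 1 intact copy of Notch1 and were Terc nulls of generation 2, whose telomeres are shortened. N1WT/TercG2 mice (n = 3) were Terc nulls of the same generation with both copies of Notch1, N1het/TercWT mice (n = 4) were Notch1 heterozygotes with intact Terc and long telomeres, and N1WT/TercWT mice (n = 4) had both genes intact. The table gives 1 FPKM value (fragments scaled to the length of the transcript and to the size of the library) per gene and group, so the spread between mice and the read depth are unknown and no value below has an error or a test.

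A nucleosome holds DNA around a core of histones H2A, H2B, H3 and H4, and the linker histone H1 binds where the DNA enters and leaves it. Replication-dependent histone genes lie in clusters, are transcribed mainly in S phase, and most of their messengers end in a conserved stem-loop instead of a poly(A) tail. Variant genes such as those of H3.3 and H2A.Z lie outside the clusters, give polyadenylated messengers and are expressed outside S phase too, so that they supply histones to cells that do not divide.

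The targeted genes were read first. The telomerase RNA gene, matched by its identifier ENSMUSG00000064796, was listed at 0 FPKM in both TercG2 groups, against 4.52 in N1het/TercWT and 1.42 in N1WT/TercWT valves. Notch1 stood at 23.3 FPKM in N1het/TercG2, 16.6 in N1WT/TercG2, 25.1 in N1het/TercWT and 39.1 in N1WT/TercWT valves. It was thus lower in the heterozygous group with long telomeres but higher in the group labelled N1het with short telomeres, so directions between the 2 short-telomere groups rest on the labels alone. Between 250 genes (N1het/TercWT) and 2010 genes (N1WT/TercG2) were listed at 0 in a group, and the median FPKM of all genes was 4.85 in N1het/TercG2, 4.83 in N1WT/TercG2, 7.03 in N1het/TercWT and 6.30 in N1WT/TercWT. The FPKM of all genes summed to 590290 in N1het/TercG2, 583151 in N1WT/TercG2, 416875 in N1het/TercWT and 427784 in N1WT/TercWT valves. Levels of single genes were not rescaled to these sums. Rankings between short-telomere and long-telomere groups therefore hold for FPKM as listed. Of the lists of cell markers, 9 genes of valve interstitial cells and fibroblasts summed to between 4301 and 7052 FPKM and 8 of valve endothelium to between 259 and 442 FPKM. Genes of cardiomyocytes, the cells of heart muscle, summed to between 3226 and 5164 FPKM, but single genes varied more. Nppa had 413 FPKM in N1het/TercG2, 46.8 in N1WT/TercG2, 43.4 in N1het/TercWT and 352 in N1WT/TercWT valves. Bmp10 had 35.9 FPKM in N1WT/TercWT valves and at most 0.162 in any other group. Of the 9 cardiomyocyte genes, 5 were higher and 4 lower in N1het/TercWT than in N1WT/TercWT valves. Sums of other lists were less even. Smooth muscle genes summed to 485 FPKM in N1het/TercG2, 606 in N1WT/TercG2, 259 in N1het/TercWT and 1171 in N1WT/TercWT valves, and erythroid genes to 15768 in N1het/TercG2, 28567 in N1WT/TercG2, 7453 in N1het/TercWT and 17024 in N1WT/TercWT valves. Melanocyte genes summed to 27.4 FPKM in N1het/TercG2, 87.8 in N1WT/TercG2, 156 in N1het/TercWT and 138 in N1WT/TercWT valves, highest in N1het/TercWT. Their part in the results below was not tested.

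Summed over the class, the Hist-named genes were highest in N1het/TercWT valves. Their sums were 748 FPKM in N1het/TercG2, 681 in N1WT/TercG2, 1630 in N1het/TercWT and 962 in N1WT/TercWT valves. The variant genes varied less, with sums of 647 FPKM in N1het/TercG2, 602 in N1WT/TercG2, 873 in N1het/TercWT and 551 in N1WT/TercWT valves. All histone genes together took 0.236% of the summed FPKM in N1het/TercG2, 0.220% in N1WT/TercG2, 0.601% in N1het/TercWT and 0.354% in N1WT/TercWT valves. The variants held a larger share of the histone FPKM in the short-telomere groups, 46.4% in N1het/TercG2 and 46.9% in N1WT/TercG2, against 34.9% in N1het/TercWT and 36.4% in N1WT/TercWT valves. In such bulk samples fewer cells of a type and less RNA per cell cannot be told apart.

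In 3 of the 4 groups most Hist-named genes were under 10 FPKM and 5 genes carried most of the sum, whereas in N1het/TercWT the other genes together exceeded these 5. Hist1h4d, Hist1h1e, Hist1h2bc, Hist1h1c and Hist1h2bl together gave 552 FPKM in N1het/TercG2, 459 in N1WT/TercG2, 789.6 in N1het/TercWT and 614 in N1WT/TercWT valves. The other 48 genes summed to 196 FPKM in N1het/TercG2, 222 in N1WT/TercG2, 841 in N1het/TercWT and 348 in N1WT/TercWT valves, so it was mainly outside the top 5 that N1het/TercWT stood apart. The median Hist-named gene had 1.85 FPKM in N1het/TercG2, 1.37 in N1WT/TercG2, 10.04 in N1het/TercWT and 4.33 in N1WT/TercWT valves. A level of at least 10 FPKM was reached by 11 of the 53 in N1het/TercG2, 12 in N1WT/TercG2, 27 in N1het/TercWT and 13 in N1WT/TercWT valves, and levels under 1 FPKM were found for 20 genes in N1het/TercG2, 25 in N1WT/TercG2, 2 in N1het/TercWT and 10 in N1WT/TercWT valves. In all, 40 of 53 Hist-named genes and 5 of 9 variants were highest in N1het/TercWT, which was the highest group for 33.3% of all genes.

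Among the 6 linker histone genes, Hist1h1e (H1.4) had 108 FPKM in N1het/TercG2, 126 in N1WT/TercG2, 185 in N1het/TercWT and 116 in N1WT/TercWT valves. Hist1h1c (H1.2) had 51.5 FPKM in N1het/TercG2, 35.6 in N1WT/TercG2, 49.4 in N1het/TercWT and 73.9 in N1WT/TercWT valves. These 2 genes were above 30 FPKM in every group. Hist1h1b (H1.5) had 7.57 FPKM in N1het/TercG2, 36.6 in N1WT/TercG2, 79.1 in N1het/TercWT and 30.7 in N1WT/TercWT valves. Hist1h1a (H1.1) had 1.20 FPKM in N1het/TercG2, 6.59 in N1WT/TercG2, 54.3 in N1het/TercWT and 6.37 in N1WT/TercWT valves. Both were thus lowest in N1het/TercG2 and highest in N1het/TercWT. Neither shares an exact 100-base stretch of its transcript with another annotated transcript, while copies that differ by single bases were not searched for. Hist1h1d (H1.3) was under 1 FPKM in both short-telomere groups, at 0.527 in N1het/TercG2 and 0.247 in N1WT/TercG2, against 9.32 in N1het/TercWT and 4.33 in N1WT/TercWT valves. Hist1h1t, the testis linker histone, was at most 0.785 FPKM in any group.

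The core histone H2A genes were led by Hist1h2ak, with 13.7 FPKM in N1het/TercG2, 36.5 in N1WT/TercG2, 94.9 in N1het/TercWT and 27.8 in N1WT/TercWT valves. Hist3h2a, of the small Hist3 set, had 9.17 FPKM in N1het/TercG2, 13.1 in N1WT/TercG2, 47.9 in N1het/TercWT and 31.4 in N1WT/TercWT valves. Hist2h2ac had 14.3 FPKM in N1het/TercG2, 12.7 in N1WT/TercG2, 25 in N1het/TercWT and 32.0 in N1WT/TercWT valves. For Hist3h2a and Hist2h2ac both short-telomere groups lay below both long-telomere groups, which was also true of Hist1h2ac at 1.21 FPKM in N1het/TercG2, 0.237 in N1WT/TercG2, 10.4 in N1het/TercWT and 9.0 in N1WT/TercWT valves. The other 5 H2A genes did not pass 16.2 FPKM in any group.

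H2B was the largest family, and its most abundant gene did not follow the others. Hist1h2bc had 97.8 FPKM in N1het/TercG2, 109 in N1WT/TercG2, 109 in N1het/TercWT and 198 in N1WT/TercWT valves, so that N1WT/TercWT was the highest group. Hist1h2bl had 15.9 FPKM in N1het/TercG2, 13.2 in N1WT/TercG2, 135 in N1het/TercWT and 34.1 in N1WT/TercWT valves. Hist1h2bm had 24.6 FPKM in N1het/TercG2, 29.1 in N1WT/TercG2, 95.8 in N1het/TercWT and 29.1 in N1WT/TercWT valves. For both of these the other 3 groups lay well below N1het/TercWT. Hist1h2bf had 19.7 FPKM in N1het/TercG2, 1.37 in N1WT/TercG2, 56.2 in N1het/TercWT and 10.7 in N1WT/TercWT valves. Hist1h2bh had 4.31 FPKM in N1het/TercG2, 0.734 in N1WT/TercG2, 24.8 in N1het/TercWT and 2.52 in N1WT/TercWT valves. Hist1h2bn had 1.07 FPKM in N1het/TercG2, 1.66 in N1WT/TercG2, 28.0 in N1het/TercWT and 9.76 in N1WT/TercWT valves. All 3 encode core H2B and peaked in N1het/TercWT, as did 14 of the 16 H2B genes. Hist2h2be, one of the 2 exceptions, kept to between 6.24 and 9.65 FPKM in all groups.

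The 11 Hist-named H3 genes, the set for the replicative forms H3.1 and H3.2, were the scarcest core family. They summed to 18.9 FPKM in N1het/TercG2, 24.5 in N1WT/TercG2, 99 in N1het/TercWT and 20.7 in N1WT/TercWT valves. Hist1h3g had 3.79 FPKM in N1het/TercG2, was listed at 0 in N1WT/TercG2, and had 33.5 in N1het/TercWT and 1.01 in N1WT/TercWT valves. Hist1h3e had 6.89 FPKM in N1het/TercG2, 0.423 in N1WT/TercG2, 17.8 in N1het/TercWT and 5.20 in N1WT/TercWT valves. Of the 11 genes, 9 were highest in N1het/TercWT, among them Hist1h3i with 2.87 FPKM in N1het/TercG2, 3.69 in N1WT/TercG2, 9.25 in N1het/TercWT and 3.35 in N1WT/TercWT valves. The exceptions, Hist1h3d and Hist2h3c1, were highest in N1WT/TercG2. Hist1h3d had 0.504 FPKM in N1het/TercG2, 6.39 in N1WT/TercG2, 1.76 in N1het/TercWT and 1.59 in N1WT/TercWT valves. Hist2h3c1 had 1.85 FPKM in N1het/TercG2, 8.49 in N1WT/TercG2, 3.54 in N1het/TercWT and 2.37 in N1WT/TercWT valves.

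Hist1h4d alone gave most of the H4 level and was the highest Hist-named gene of 3 groups. It had 279.6 FPKM in N1het/TercG2, 175 in N1WT/TercG2, 312 in N1het/TercWT and 193 in N1WT/TercWT valves, and no 100-base stretch of its transcript is shared with another. The symbol Hist2h4 stands on 2 rows. The row with identifier ENSMUSG00000068851 had 19.5 FPKM in N1het/TercG2, 13.7 in N1WT/TercG2, 20.5 in N1het/TercWT and 43.9 in N1WT/TercWT valves. The row with ENSMUSG00000069306, which GENCODE M21 names Hist1h4m, was listed at 0 in N1het/TercG2 and had 0.189 FPKM in N1WT/TercG2, 1.27 in N1het/TercWT and 7.23 in N1WT/TercWT valves. Both rows were thus highest in N1WT/TercWT, as were 4 of the 11 H4 genes, more than in any other family. Hist1h4i, one of these, had 0.452 FPKM in N1het/TercG2, 4.88 in N1WT/TercG2, 3.23 in N1het/TercWT and 8.28 in N1WT/TercWT valves. Hist1h4c had 15.2 FPKM in N1het/TercG2, 6.85 in N1WT/TercG2, 12 in N1het/TercWT and 7.01 in N1WT/TercWT valves, higher in both heterozygous groups than in both wild type groups. Hist1h4k was at 0.0846 FPKM in N1het/TercG2 and listed at 0 in N1WT/TercG2, against 12.7 in N1het/TercWT and 5.76 in N1WT/TercWT valves. Hist1h4h had 3.02 FPKM in N1het/TercG2, 1.73 in N1WT/TercG2, 5.20 in N1het/TercWT and 0.447 in N1WT/TercWT valves, the lowest group being N1WT/TercWT.

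Among the variants, the 2 genes of H3.3, the H3 form laid down outside replication, were abundant and even. H3f3a had 285 FPKM in N1het/TercG2, 250.5 in N1WT/TercG2, 306 in N1het/TercWT and 215 in N1WT/TercWT valves. H3f3b, which encodes the same protein, had 92 FPKM in N1het/TercG2, 85.7 in N1WT/TercG2, 97.5 in N1het/TercWT and 60.4 in N1WT/TercWT valves. In FPKM as listed both genes were lowest in N1WT/TercWT, and their range over the groups was narrower than that of the replicative H3 genes. H3.3 therefore made up 95.2% of the FPKM of H3 genes in N1het/TercG2, 93.2% in N1WT/TercG2, 80.3% in N1het/TercWT and 93.0% in N1WT/TercWT valves.

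H2A.Z, a variant found at gene starts, is encoded by H2afz and H2afv, and these 2 genes ranked the groups differently. H2afz had 156 FPKM in N1het/TercG2, 101 in N1WT/TercG2, 249.7 in N1het/TercWT and 115 in N1WT/TercWT valves. H2afv had 22.8 FPKM in N1het/TercG2, 48.1 in N1WT/TercG2, 36.3 in N1het/TercWT and 24.1 in N1WT/TercWT valves. H2afz peaked in N1het/TercWT and H2afv in N1WT/TercG2; of the windows of the H2afz transcript, 58.8% occur in other annotated transcripts, the highest share among the variants. H2afx, whose product is phosphorylated at DNA breaks, had 29.7 FPKM in N1het/TercG2, 13.2 in N1WT/TercG2, 109.9 in N1het/TercWT and 60.0 in N1WT/TercWT valves. Both short-telomere groups thus lay below both long-telomere groups for H2afx. H2afj, which encodes H2A.J, had 52.1 FPKM in N1het/TercG2, 91.3 in N1WT/TercG2, 51.4 in N1het/TercWT and 50.7 in N1WT/TercWT valves, so that 3 groups were nearly equal and N1WT/TercG2 stood above them.

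MacroH2A, an H2A form with a large extra domain that is enriched on silent chromatin, is encoded by H2afy and H2afy2. H2afy had 6.60 FPKM in N1het/TercG2, 7.47 in N1WT/TercG2, 15.2 in N1het/TercWT and 11.1 in N1WT/TercWT valves. H2afy2 had 2.50 FPKM in N1het/TercG2, 5.31 in N1WT/TercG2, 6.85 in N1het/TercWT and 6.94 in N1WT/TercWT valves. In both genes the short-telomere groups lay below the long-telomere groups. H2afy3, which GENCODE M21 annotates as a processed pseudogene, was listed at 0 in N1het/TercG2 and N1WT/TercG2, at 0.289 FPKM in N1het/TercWT and at 7.47 FPKM in N1WT/TercWT valves.

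**Figure D1:**
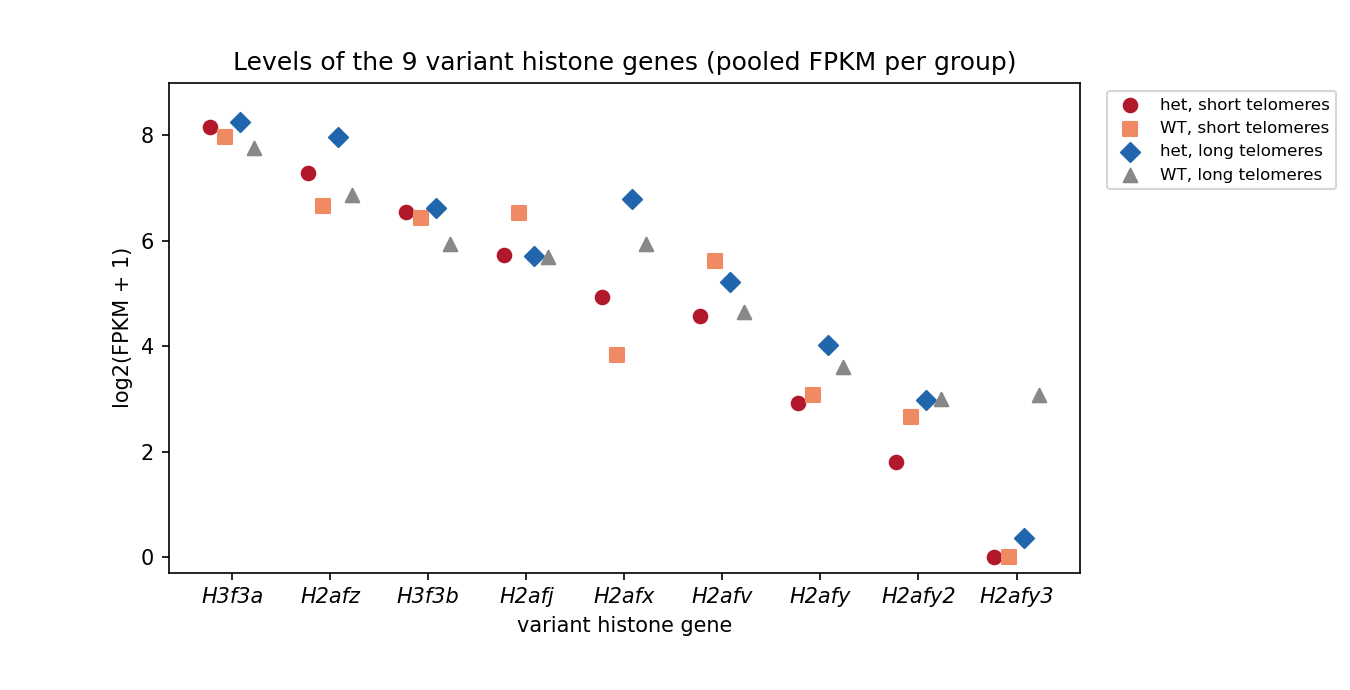
Levels of the 9 variant genes as log2(FPKM + 1) of the pooled value, 1 point per gene and group. H3f3a and H3f3b each stay fairly even over the groups, whereas H2afx is lowest in both short-telomere groups and H2afy3 is above 1 FPKM in N1WT/TercWT alone.

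The first comparison sets loss of 1 copy of Notch1 against the wild type with long telomeres. A gene is counted as past 2-fold where log2(FPKM + 1) differed by at least 1, a scale that understates differences of low genes. Of the 53 Hist-named genes, 31 were past 2-fold higher in N1het/TercWT than in N1WT/TercWT valves, where 10.9% of all genes were, and 3 were past 2-fold lower, where 7.53% of all genes were. Their median difference was 1.24 on the log2 scale, beside 0.09 for all genes, and 45 of 53 lay above 0. With a pseudocount of 5 in place of 1, which weighs low genes less, 16 were past 2-fold higher and 0 lower. The share of all genes was not counted with that pseudocount. By family, 9 of 11 H3, 12 of 16 H2B, 5 of 9 H2A and 2 of 6 H1 genes were past 2-fold higher and none of these families had a gene past 2-fold lower, while H4 had 3 higher and 3 lower. The widest differences upward were those of Hist1h3g at 4.10, Hist1h1a at 2.91 and Hist1h2bh at 2.87, and downward those of the 2 Hist2h4 rows at -1.86 (ENSMUSG00000069306) and -1.07 (ENSMUSG00000068851) and of Hist1h4i at -1.13. Of the 9 variants, only H2afz was past 2-fold higher, at 1.11, and only H2afy3 was past 2-fold lower, at -2.72, with a median of 0.50. In the authors' deposited table, 0 of the 62 histone genes were called in this comparison, where 0.415% of all genes were called and the smallest ratio among called genes was 4.67; the table gives no p-values.

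With short telomeres, the Hist-named genes lay to both sides of 0 between the group labelled heterozygous and the group labelled wild type. Of the 53, 11 were past 2-fold higher in N1het/TercG2 than in N1WT/TercG2 valves (12.5% of all genes) and 10 past 2-fold lower (10.8% of all genes), with a median of 0.07 beside 0.06 for all genes. The widest upward were Hist1h2bf at 3.13, Hist1h3e at 2.47 and Hist1h3g, which was listed at 0 in N1WT/TercG2, and Hist1h3d at -2.30, Hist1h1b at -2.13 and Hist1h4i at -2.02 the widest downward. H1 had 0 genes past 2-fold higher and 2 lower, and the other families had genes on both sides. Of the variants, H2afx was past 2-fold higher at 1.11 and H2afv past 2-fold lower at -1.05, with a median of 0.00. Calls in the authors' deposited table covered 0 of the 62 histone genes, while 0.476% of all genes were called.

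Between short and long telomeres with both copies of Notch1, the Hist-named genes were mostly lower with short telomeres. Of the 53 genes, 3 were past 2-fold higher in N1WT/TercG2 than in N1WT/TercWT valves (8.9% of all genes) and 25 past 2-fold lower (20.9% of all genes), with a median of -0.84 beside -0.23 for all genes. After centring each comparison on the median of all genes the split was 6 higher and 18 lower. The share of all genes was not counted after centring. The 3 that were higher all carry H3 symbols, Hist1h3d at 1.51, Hist2h3c1 (Gm20634 in GENCODE M21) at 1.5 and Hist1h3a at 1.07. The widest downward were Hist1h2ac at -3.02, Hist2h4 (ENSMUSG00000069306) at -2.79 and, of the genes listed at 0 in N1WT/TercG2, Hist1h4k. Of the variants, 0 were past 2-fold higher and 2 past 2-fold lower, H2afx at -2.10 and H2afy3, with a median of -0.19, and after centring 2 were higher and 2 lower. Calls in the authors' deposited table covered 0 of the 62 histone genes, while 0.686% of all genes were called.

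Short against long telomeres in Notch1 heterozygotes gave the most one-sided split of the 5 comparisons. Of the 53 Hist-named genes, 0 were past 2-fold higher in N1het/TercG2 than in N1het/TercWT valves (4.71% of all genes) and 36 past 2-fold lower (16.8% of all genes), with a median of -1.54 beside -0.24 for all genes. With a pseudocount of 5, 23 were past 2-fold lower, and the share of all genes was not counted. Only 4 lay above 0, and the widest of these was Hist1h4c at 0.32. The widest downward were Hist1h1a at -4.65, Hist1h2bn at -3.81 and Hist1h4k at -3.66. H2B had 13 of 16, H2A 7 of 9, H3 8 of 11, H4 5 of 11 and H1 3 of 6 genes past 2-fold lower. Of the variants, 0 were past 2-fold higher and 3 past 2-fold lower, H2afx at -1.85, H2afy2 at -1.17 and H2afy at -1.09, with a median of -0.65. Calls in the authors' deposited table covered 0 of the 62 histone genes, while 0.432% of all genes were called. The N1het/TercWT group is shared with the first comparison, so the 2 are not independent.

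With both changes against neither, 3 Hist-named genes were past 2-fold higher in N1het/TercG2 than in N1WT/TercWT valves (7.48% of all genes) and 18 past 2-fold lower (17.2% of all genes). Their median was -0.64 beside -0.16 for all genes. Those higher were Hist1h4h at 1.48, Hist1h3g at 1.26 and Hist1h4c at 1.01, and the widest downward were Hist2h4 (ENSMUSG00000069306, listed at 0 in N1het/TercG2), Hist1h4i at -2.68 and Hist1h4k at -2.64. Of the variants, 0 were past 2-fold higher and 2 past 2-fold lower, H2afy2 at -1.18 and H2afy3, with a median of -0.08. Calls in the authors' deposited table covered 0 of the 62 histone genes, while 0.526% of all genes were called. The Notch1 difference with short telomeres minus that with long telomeres had a median of -1.0 over the Hist-named genes. The median was -0.58 over the variants and 0.00 over all genes. Below 0 lay 36 of 53 Hist-named genes, 7 of 9 variants and 8992 of all 18073 genes. The short-telomere side of this difference takes its direction from the labels, against which Notch1 itself runs, so the same doubt applies to it.

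**Figure D2:**
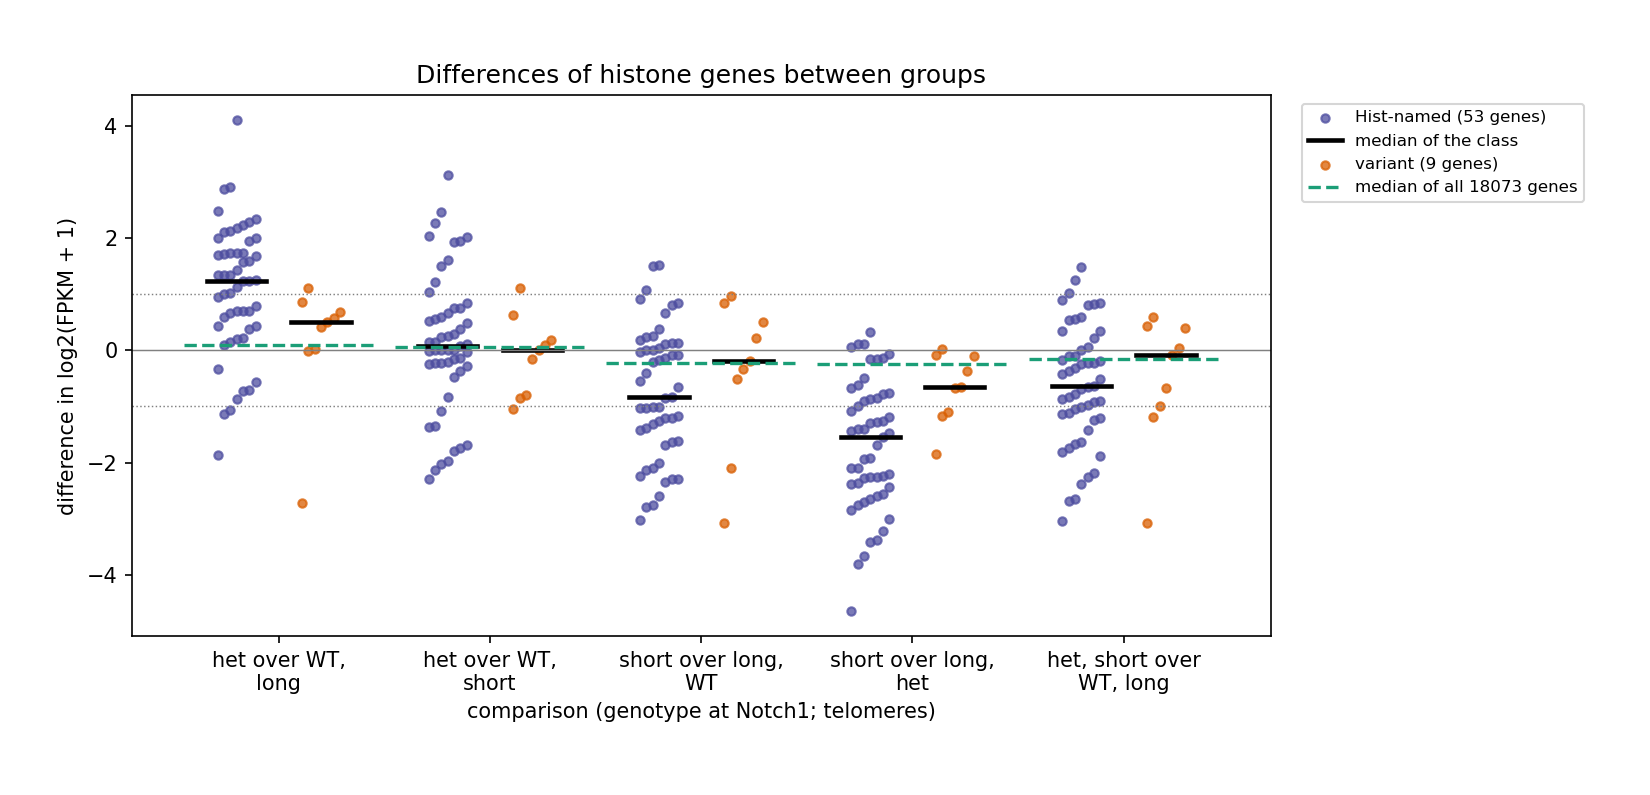
Difference in log2(FPKM + 1) of each Hist-named gene and each variant gene in the 5 comparisons, with the median of each class (black bar), the median of all 18073 genes (dashed) and the limits of 2-fold (dotted). The Hist-named genes lie mostly above 0 for heterozygous over wild type with long telomeres and mostly below 0 for short over long telomeres in heterozygotes.

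The ends of the transcripts were read from GENCODE M21, in which 52 of the 53 Hist-named genes were matched, 43 by identifier and 9 by symbol. The stem-loop was searched on the sense strand as the arms GGNNCT and AGNNCC around the loop TTTN, joined without a gap, and 37 of the 52 transcripts hold it, against 72 of 21901 protein-coding genes (0.329%). Of the 9 variants only H2afx holds it, and 15 of the 52 Hist-named transcripts do not. Of these 15, 6 are under 420 bases, and whether their annotation reaches the end of the messenger was not tested. The sequences found are shown 5′ to 3′ as DNA because they are the mark by which the messengers of replication-dependent genes are known, with the loop between the paired arms in capitals.
Stem-loop of 21 genes, among them Hist1h1e, Hist1h2bm and Hist1h2bh: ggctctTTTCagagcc
Stem-loop of 6 H4 genes, among them Hist1h4d: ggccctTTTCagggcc
Stem-loop of 6 genes, among them Hist1h3e and Hist1h3i: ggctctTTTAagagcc
Stem-loop of 2 H4 genes, Hist1h4i and 1 of the Hist2h4 rows: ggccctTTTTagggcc
Stem-loop of Hist2h2ac: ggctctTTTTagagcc
Stem-loop of Hist1h4j: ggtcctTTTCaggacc
Stem-loop of the variant H2afx: ggccctTTTAagggcc

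Among the Hist-named genes, the arms of the H4 genes differ from those of the other families, and 21 genes from H1, H2A, H2B and H3 share 1 sequence. The variant H2afx has the same arms as the H4 genes other than Hist1h4j. Where a gene has several annotated transcripts, the longest one with the stem-loop was used. Of the 37 genes, 16 have its end within 100 bases after the stem-loop, as a messenger without a poly(A) tail would. The other 21 run further, and a gene among them can have a shorter annotated form as well. In N1het/TercWT against N1WT/TercWT, 12 of the 16 and 6 of the 21 were past 2-fold higher, with medians of 1.25 and 0.69. In N1het/TercG2 against N1het/TercWT, 13 of the 16 and 9 of the 21 were past 2-fold lower, with medians of -1.80 and -0.87. The 2 sets also differ in length, with a median of 474.5 bases for the 16 and 1249 bases for the 21. Split at 700 bases, a limit chosen after the values were seen, 24 of the 28 shorter and 6 of the 24 longer transcripts were past 2-fold higher in the first of these comparisons. In the second, 25 of 28 and 10 of 24 were past 2-fold lower. At the same FPKM a shorter transcript rests on fewer fragments, and many of these transcripts are only a few times longer than the 100-base reads. Length and end type cannot be told apart here. The reads were primed with random as well as oligo-dT primers, so messengers with and without a poly(A) tail could both be copied.

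**Figure D3:**
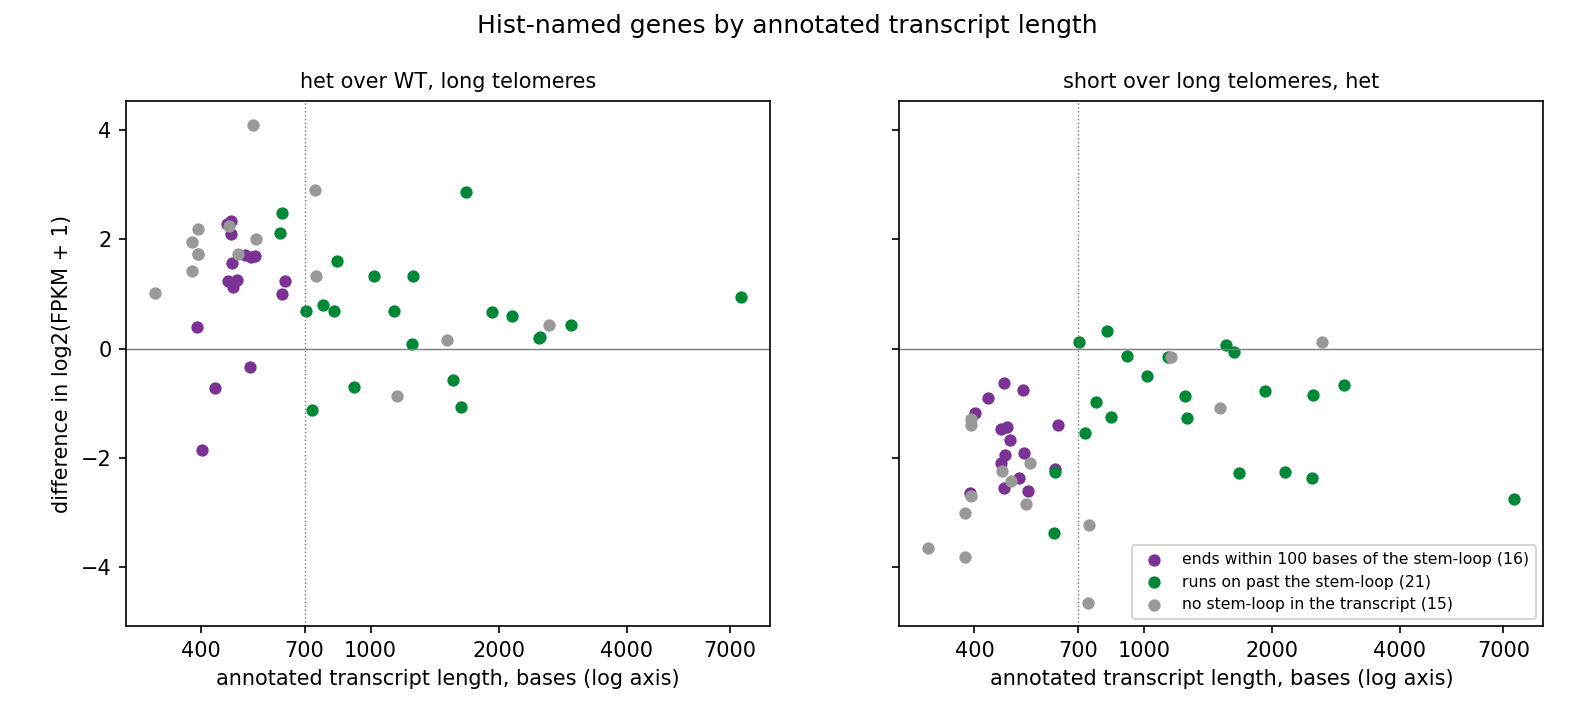
Difference in log2(FPKM + 1) of 52 Hist-named genes against annotated transcript length (log axis), coloured by where the transcript ends relative to the stem-loop; the dotted vertical line marks 700 bases. The 28 genes shorter than 700 bases lie mostly above 0 on the left, and all of them lie below 0 on the right.

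Some genes of the clusters are known to give polyadenylated messengers too. On a list of these, Hist1h1c, Hist1h2bc and Hist2h2be, whose levels are given above, had a median difference of -0.57 in N1het/TercWT against N1WT/TercWT and of 0.06 in N1het/TercG2 against N1het/TercWT, with 0 of the 3 past 2-fold in either. All 3 have annotated transcripts over 700 bases.

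Near-identical copies limit single genes. Of the 52 matched Hist-named transcripts, 46 share at least 1 window of 100 bases with another transcript, the median share is 30.3% and 15 have over 50% of windows shared, so levels of single genes such as Hist1h2bl (62.1%), Hist2h3b (100% of windows) and Hist2h4 (ENSMUSG00000069306, 88.1%) are uncertain. Without these 15 genes, 19 of 38 were past 2-fold higher and 2 lower in N1het/TercWT against N1WT/TercWT, and 24 of 38 were past 2-fold lower in N1het/TercG2 against N1het/TercWT. Of the 13 genes with at most 10% of windows shared, a limit chosen after the values were seen, 6 were past 2-fold higher and 1 lower in N1het/TercWT against N1WT/TercWT, with a median of 0.95. The 6 were Hist1h1a, Hist1h1b, Hist1h2bh, Hist1h2bm, Hist3h2ba and Hist3h2bb, and the 1 was Hist2h4 (ENSMUSG00000068851). In N1het/TercG2 against N1het/TercWT, 0 of the 13 were past 2-fold higher and 8 lower, with a median of -2.24. For 6 genes the identifier carries another symbol in M21, among them Hist3h2bb, annotated there as a pseudogene, which had 3.73 FPKM in N1het/TercWT and was listed at 0 in the other groups.

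Promoters were read from RefSeq windows of 300 bases on GRCm38.p6, from 250 bases before to 50 after each start, which matched 41 Hist-named and 7 variant genes. TATAAA was found on either strand in 61.0% of the Hist-named windows, against 1 of 7 variants and 13.6% of all windows. CCAAT was found in 87.8% of the Hist-named windows, 6 of 7 variants and 37.4% of all. The octamer ATTTGCAT was found in 24.4% and in 1.74% of all, and lay only in H2A (5 of 9) and H2B (5 of 12) genes of the class. AAACACA, part of the H1 box, was found in 17.1% and in 7.18% of all windows, with 5 of 6 H1 genes holding it. All motifs were searched on both strands, neighbouring ones can overlap by a few letters, and a match describes letters only.

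Of the 9 H2A and 12 H2B genes with a matched window, 10 form 5 divergent pairs on chromosome 13, each with starts under 500 bases apart. Pairs with a gene that lacks a window, such as Hist1h2bc or Hist2h2be, could not be found. In each of the 5 pairs both genes were higher in N1het/TercWT than in N1WT/TercWT valves. Of the 10 genes, 9 were past 2-fold higher, where 10.9% of all genes were. The listed levels of partners differed all the same. Hist1h2bl had 135 FPKM in N1het/TercWT valves where its partner Hist1h2ai had 3.74, and Hist1h2ak had 94.9 where its partner Hist1h2bn had 28.0. Hist1h2bl, Hist1h2ai and Hist1h2bn each have over 50% of windows shared with other transcripts, whereas Hist1h2ak lies below that limit. The differences within these pairs are therefore uncertain, and the part of read assignment in them was not tested. Hist1h2bg had 2.90 FPKM in N1het/TercG2, 0.671 in N1WT/TercG2, 17.6 in N1het/TercWT and 2.35 in N1WT/TercWT valves, and its partner Hist1h2ae had 3.69 FPKM in N1het/TercG2, 0.165 in N1WT/TercG2, 3.32 in N1het/TercWT and 1.67 in N1WT/TercWT valves. This pair was the one that parted between short and long telomeres in heterozygotes, with differences of -2.26 for Hist1h2bg and 0.12 for Hist1h2ae. Its shared promoter is shown, with those of the linker gene Hist1h1b and of H3f3a, the most abundant variant, for contrast. All are 5′ to 3′ on the strand given, with the motifs above in capitals on whichever strand they lie (ATTGG and TGTGTTT are CCAAT and AAACACA read on the other strand).
Between Hist1h2ae and Hist1h2bg, chr13:23571221-23571399, plus strand: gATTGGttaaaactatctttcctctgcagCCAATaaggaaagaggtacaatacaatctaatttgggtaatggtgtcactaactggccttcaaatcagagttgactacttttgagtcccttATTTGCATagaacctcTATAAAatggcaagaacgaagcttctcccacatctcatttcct
Before Hist1h1b, chr13:21780626-21780875, minus strand: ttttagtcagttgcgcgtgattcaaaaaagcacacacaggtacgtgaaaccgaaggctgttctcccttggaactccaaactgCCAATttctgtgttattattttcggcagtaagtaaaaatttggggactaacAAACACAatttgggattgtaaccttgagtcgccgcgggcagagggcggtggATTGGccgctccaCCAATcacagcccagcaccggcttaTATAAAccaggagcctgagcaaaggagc
Before H3f3a, chr1:180813606-180813855, minus strand: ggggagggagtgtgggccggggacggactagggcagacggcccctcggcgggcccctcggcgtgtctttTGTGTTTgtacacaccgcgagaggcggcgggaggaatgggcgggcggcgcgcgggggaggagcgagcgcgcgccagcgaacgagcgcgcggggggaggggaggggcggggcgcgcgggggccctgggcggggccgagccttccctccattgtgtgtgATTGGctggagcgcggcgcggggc

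TATAAA lies close to the starts of Hist1h2bg and Hist1h1b, and the sequence before H3f3a holds none. In the stretch between Hist1h2ae and Hist1h2bg it is far from the start of Hist1h2ae.

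Genes that serve histone supply were read beside the histones. Of 14 genes of histone gene transcription and messenger processing, 5 were past 2-fold higher (10.9% of all genes) and 0 lower (7.53%) in N1het/TercWT against N1WT/TercWT, with a median of 0.40 beside 0.09 for all genes. In N1het/TercG2 against N1het/TercWT, 0 were higher (4.71% of all genes) and 5 lower (16.8%), with a median of -0.83 beside -0.24. Slbp, which binds the stem-loop, had 8.66 FPKM in N1het/TercG2, 6.91 in N1WT/TercG2, 17.8 in N1het/TercWT and 5.96 in N1WT/TercWT valves. Eri1, an exonuclease that trims the end of the stem-loop, had 9.38 FPKM in N1het/TercG2, 11.7 in N1WT/TercG2, 21.4 in N1het/TercWT and 6.32 in N1WT/TercWT valves. Npat, which activates the clusters in S phase, had 3.92 FPKM in N1het/TercG2, 3.24 in N1WT/TercG2, 12.8 in N1het/TercWT and 9.89 in N1WT/TercWT valves. Slbp and Eri1 stood out in N1het/TercWT, and Npat was lower in both short-telomere groups.

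Of 19 histone chaperone and exchange genes, 4 were past 2-fold higher (10.9% of all genes) and 0 lower (7.53%) in N1het/TercWT against N1WT/TercWT, with a median of 0.16, close to the 0.09 of all genes. In N1het/TercG2 against N1het/TercWT, 0 were higher (4.71% of all genes) and 8 lower (16.8%), with a median of -0.96 beside -0.24. Asf1b, a chaperone of new H3 and H4 in dividing cells, had 0.462 FPKM in N1het/TercG2, 0.095 in N1WT/TercG2, 7.69 in N1het/TercWT and 0.582 in N1WT/TercWT valves. Anp32e, a chaperone of H2A.Z, had 51.7 FPKM in N1het/TercG2, 61.7 in N1WT/TercG2, 114 in N1het/TercWT and 39.4 in N1WT/TercWT valves. Cenpa, the centromeric H3, had 7.34 FPKM in N1het/TercG2, 6.53 in N1WT/TercG2, 20.9 in N1het/TercWT and 4.36 in N1WT/TercWT valves. All 3 were highest in the group where the Hist-named genes were. Others of the list were not. Asf1a had 18.3 FPKM in N1het/TercG2, 27.2 in N1WT/TercG2, 20.4 in N1het/TercWT and 6.55 in N1WT/TercWT valves. Of the 19 genes, 15 were higher and 4 lower in N1het/TercWT than in N1WT/TercWT valves. Chaf1a was among the 4, with 3.80 against 4.99 FPKM. Hira, which places H3.3, was close in both long-telomere groups and lower in both short-telomere groups. It had 4.07 FPKM in N1het/TercG2, 3.70 in N1WT/TercG2, 7.96 in N1het/TercWT and 7.0 in N1WT/TercWT valves.

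Replication and cell cycle genes also had their highest sum in N1het/TercWT valves. Of 21 such genes, 16 were past 2-fold higher (10.9% of all genes) and 0 lower (7.53%) in N1het/TercWT against N1WT/TercWT, with a median of 1.47. In N1het/TercG2 against N1het/TercWT, 0 were higher (4.71% of all genes) and 18 lower (16.8%), with a median of -1.79. Their sums were 141 FPKM in N1het/TercG2, 231 in N1WT/TercG2, 480.4 in N1het/TercWT and 145 in N1WT/TercWT valves. The N1WT/TercG2 sum rests on Ccnb2, a mitotic cyclin, which had 90.04 FPKM there against 2.10 in N1WT/TercWT valves. Without it the other 20 genes summed to 132 FPKM in N1het/TercG2, 141 in N1WT/TercG2, 451 in N1het/TercWT and 143 in N1WT/TercWT valves. Mki67, a marker of dividing cells, had 11.5 FPKM in N1het/TercG2, 21.7 in N1WT/TercG2, 73.5 in N1het/TercWT and 19.5 in N1WT/TercWT valves. In N1WT/TercG2 against N1WT/TercWT, 2 of the 21 were past 2-fold higher (8.9% of all genes) and 6 lower (20.9%), with a median of -0.30 beside -0.23 for all genes, which is near the background.

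Genes of developing T cells, which divide in the thymus, had their highest sum in the same group. All 12 of the list were past 2-fold higher in N1het/TercWT than in N1WT/TercWT valves (10.9% of all genes). All 12 were past 2-fold lower in N1het/TercG2 than in N1het/TercWT valves (16.8% of all genes). They summed to 19.8 FPKM in N1het/TercG2, 200.5 in N1WT/TercG2, 1362 in N1het/TercWT and 142 in N1WT/TercWT valves. Of the defining genes, Rag1 had 2.01 FPKM in N1het/TercG2, 11.5 in N1WT/TercG2, 138 in N1het/TercWT and 13.1 in N1WT/TercWT valves. Ptcra was listed at 0 in N1het/TercG2 alone and was highest in N1WT/TercG2, at 8.73 FPKM against 8.18 in N1het/TercWT valves. The part of the T cell genes in the histone levels was not tested. Neutrophil genes, which also differed between groups, summed to 172 FPKM in N1het/TercG2, 1792 in N1WT/TercG2, 45.8 in N1het/TercWT and 16.4 in N1WT/TercWT valves, a different order of groups from that of the histones, and platelet genes summed to 404 FPKM in N1het/TercG2, 2057 in N1WT/TercG2, 124 in N1het/TercWT and 3183 in N1WT/TercWT valves.

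**Figure D4:**
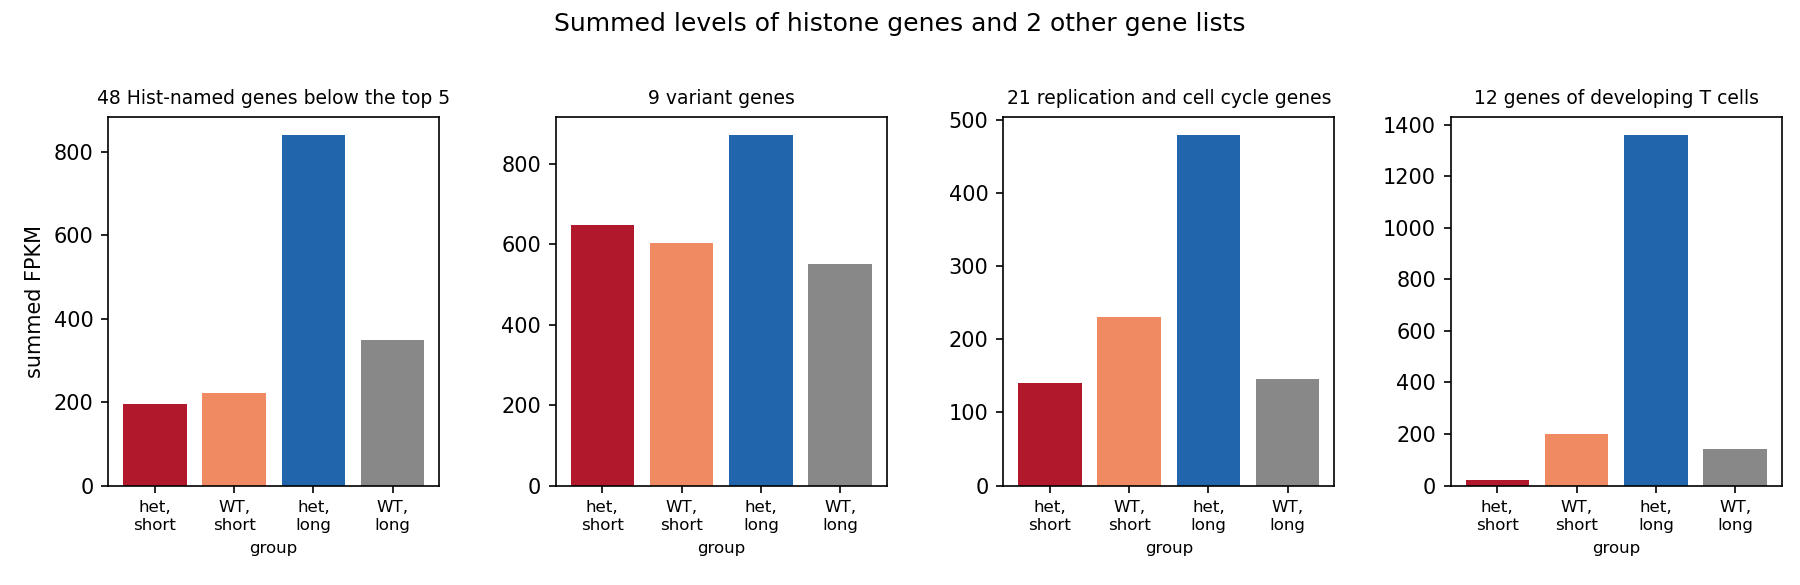
Summed FPKM in each group of the 48 Hist-named genes below the top 5, the 9 variants, 21 replication and cell cycle genes and 12 genes of developing T cells (bars start at 0; each panel has its own axis). All 4 sums are highest in N1het/TercWT, at 841, 873, 480.4 and 1362 FPKM.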

How the data were processed

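Leaflets were dissociated with collagenase (20 minutes, 37 °C), and complementary DNA was amplified with a NuGen Ovation kit, per the labels' protocols; this kit keeps no strand, so reads of overlapping genes cannot be told apart. Per the labels' protocols, 4 libraries shared a lane of paired 100 bp reads. Per the submitters' processing notes, FastQC, TopHat, SAMtools and Picard were used with build mm9, with no roles given. No source used here names the quantifier, the annotation or the way libraries were pooled. Per the file headers, the values deposited by the authors are in FPKM, with 1 column for each group, beside 5 columns of 0 or 1 read as their calls. Columns 8 and 9 share a header and were assigned to the pair of groups in which every called gene had at least a 4-fold ratio. The lane of each library is not given, so no batch could be examined, and whether replicate mice were litter mates is not stated.

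Values were analysed as log2(FPKM + 1) differences. The planned test needed values per library and could not be run, so no p-value is given; a value of 0 can be a failed estimate. The histone genes and the 17 gene lists were chosen with earlier results of these data known. Named genes were all variants, the 3 highest of each Hist-named family, the 3 widest differences upward and downward per comparison and up to 4 members per list; others were chosen after their values were seen. Transcripts came from GENCODE M21 and promoters from RefSeq GRCm38.p6, builds other than mm9, so they give names and sequence only. Code was tested on simulated data. Alternatives were pseudocounts of 0.1 and 5, a mean FPKM of at least 1, centring on the median of all genes, and leaving out genes with shared sequence, listed at 0, or with differing symbols. The software was pandas 2.3.3 and numpy 2.4.6 under Python 3.11.15, with plots by matplotlib 3.10.9.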

Additional observations from a re-analysis of the deposited data

How the results depend on the processing

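With a pseudocount of 5 in place of 1, the number of Hist-named genes past 2-fold was 16 in N1het/TercWT against N1WT/TercWT (34 with a pseudocount of 1), 6 in N1het/TercG2 against N1WT/TercG2 (21), 11 in N1WT/TercG2 against N1WT/TercWT (28), 23 in N1het/TercG2 against N1het/TercWT (36) and 8 in N1het/TercG2 against N1WT/TercWT (21), where a pseudocount of 0.1 gave 32. The direction of the larger side held in 4 of these, and in N1het/TercG2 against N1WT/TercG2 it was 2 higher and 4 lower. Without genes with over 50% of windows shared, 21 were past 2-fold in N1het/TercWT against N1WT/TercWT. The variant counts, small throughout, became 0 in N1het/TercG2 against N1WT/TercG2 and 1 in N1het/TercG2 against N1WT/TercWT and against N1het/TercWT with a pseudocount of 5. Centring gave 4 in N1WT/TercG2 against N1WT/TercWT and 1 in N1het/TercG2 against N1het/TercWT. Without H2afy3, the variant listed at 0, the count was 1 in N1het/TercWT, N1WT/TercG2 and N1het/TercG2, each against N1WT/TercWT. It was also 1 in N1het/TercWT against N1WT/TercWT without H2afz, most of whose windows are shared. The variant median turned from below to above 0 in N1WT/TercG2 against N1WT/TercWT, to 0.039 after centring and 0.012 without H2afy3, and in N1het/TercG2 against N1WT/TercWT to 0.076 after centring; the cause was not tested. Of 70 counts under alternatives, 54 stayed within 1.5 times. This tally is not a measure of robustness. The limits on mean FPKM and on symbols left every variant in, so those variant counts could not change. Leaving genes out can also lower a count only because the set is smaller. Shares of all genes were counted for the main setting alone, with a pseudocount of 1 and no centring. No paired analysis was possible because the table holds pooled values with no replicate numbers, and for the same reason no replicate could be left out. The alternatives that leave genes out by shared sequence, zeros or symbols were chosen after seeing the data.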
